A study of Mus musculus with 16 samples.

Results

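Genes of the vessel lining and of the inner heart lining were followed across atria and ventricles of adult mice after deletion of Meis1 and Meis2. A list of 36 entries named the members, and 35 of them matched a gene among the 16118 of the deposited table; the entry Npr3-absent matches no gene name, and Npr3 itself is described only beside the list. The members were grouped by known role into 12 pan-endothelial surface and junction genes, 4 endothelial receptor tyrosine kinases, 4 endothelial transcription factors, 3 arterial, 4 capillary, 3 lymphatic and 5 endocardial and valve genes. All 35 passed the filter on low values in every comparison. The 16 libraries come from the atria and the ventricles of 8 adult male littermates, with 4 libraries in each of 4 groups: idKO atrium, control atrium, idKO ventricle and control ventricle. The 4 idKO mice were Meis1flox/flox; Meis2flox/flox with 1 copy of α-MHC-MerCreMer (tg/wt), and the 4 control mice were Meis1flox/flox; Meis2flox/flox without it (wt/wt), so both groups carry the floxed alleles. Hearts were taken 2 weeks after tamoxifen induction and flushed with saline to clear the blood, and the outflow tract was removed. MerCreMer is a Cre recombinase that tamoxifen switches on, and its α-MHC promoter is active in cardiomyocytes; endothelial cells are not the cells in which it is designed to act. Effects of the transgene itself cannot be told apart from those of the deletion.

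Endothelial cells line every vessel and differ by vessel bed. Arterial cells use Notch signalling, capillary cells of the heart muscle pass fatty acids from the blood to the myocytes, lymphatic cells depend on the transcription factor PROX1, and the endocardium lines the chambers and gives rise to the valves. The VEGF receptors and the TIE receptors carry the growth signals of all these cells, and the ETS factors ERG and FLI1 and the SOX factors SOX7, SOX17 and SOX18 maintain endothelial identity.

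Each library held 13117739 to 21771518 recovered reads, and the rarest member in any library, Nrg1, still had 11 reads. Meis2 measured 7.78, 8.51, 9.35 and 9.66 in idKO ventricles, against 32.6, 26.6, 22.4 and 25.6 in control ventricles, with no overlap. In atria Meis2 averaged 17.7 ± 1.64 in idKO mice and 19.96 ± 1.48 in control mice (SD, n = 4 each, limma adjusted p = 0.966). Meis1 averaged 23.1 ± 2.29 in idKO ventricles and 27.3 ± 0.767 in control ventricles (limma adjusted p = 0.249), and 29.7 ± 2.76 in idKO atria and 28.3 ± 2.86 in control atria (limma adjusted p = 0.986). Neither target was thus called lower in idKO atria. The deposited gene totals do not show the floxed exons separately. Esr1, the oestrogen receptor gene from which MerCreMer takes its tamoxifen-responsive domains, averaged 186 ± 95.5 in idKO atria and 5.02 ± 0.895 in control atria, against 3099 ± 574 in idKO ventricles and 0.967 ± 0.632 in control ventricles, so every idKO library was above every control library and the signal was lower in idKO atria than in idKO ventricles. Values are a normalised signal, in reads relative to an effective library size (a CPM-like scale). The authors' effective library size averaged 0.958 of the recovered reads in idKO atria and 0.947 in control atria, against 0.687 in idKO ventricles and 0.639 in control ventricles, so ventricular values are raised relative to plain library shares. This touches every chamber comparison below. In bulk tissue, fewer cells of a type and less RNA per cell cannot be told apart. One library stood apart in the pan-endothelial mean (the mean log2 level of the 12 pan-endothelial genes): idKO ventricle replicate 2 was 0.16 above the mean of its group.

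Promoters were looked up in RefSeq (build GRCm38.p6, 250 bases before to 50 after the start), where 17 of the 35 members had an entry, 14 of them a single one. The 4 shown are the single-entry members with the largest chamber differences in control mice, 2 in each direction: Cytl1 and Eng higher in atria, and Rgcc and Dll4 lower in atria. Capitals mark 3 short motifs searched on both strands, none of which overlaps another here: AGGAAG, bound by ETS factors such as ERG and FLI1, AACAAT, bound by SOX factors, and TGACAG, bound by MEIS factors. In Cytl1 the first capital run is the MEIS-type match and the second the ETS-type match, the runs in Eng and Rgcc are ETS-type, and both runs in Dll4 are MEIS-type.
Cytl1 (chr5:37735269-37735568, plus strand): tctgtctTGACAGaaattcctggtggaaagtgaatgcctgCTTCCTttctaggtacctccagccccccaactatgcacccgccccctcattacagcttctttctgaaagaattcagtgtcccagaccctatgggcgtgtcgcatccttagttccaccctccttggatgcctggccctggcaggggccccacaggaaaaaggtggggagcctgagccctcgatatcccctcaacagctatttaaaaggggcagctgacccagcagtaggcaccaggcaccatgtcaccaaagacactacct
Eng (chr2:32646345-32646644, plus strand): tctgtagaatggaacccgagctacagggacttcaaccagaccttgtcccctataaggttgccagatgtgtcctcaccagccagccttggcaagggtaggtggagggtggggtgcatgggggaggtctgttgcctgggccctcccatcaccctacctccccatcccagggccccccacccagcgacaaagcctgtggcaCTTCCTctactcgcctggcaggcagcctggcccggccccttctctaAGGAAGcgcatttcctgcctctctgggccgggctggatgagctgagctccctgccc
Rgcc (chr14:79301586-79301885, minus strand): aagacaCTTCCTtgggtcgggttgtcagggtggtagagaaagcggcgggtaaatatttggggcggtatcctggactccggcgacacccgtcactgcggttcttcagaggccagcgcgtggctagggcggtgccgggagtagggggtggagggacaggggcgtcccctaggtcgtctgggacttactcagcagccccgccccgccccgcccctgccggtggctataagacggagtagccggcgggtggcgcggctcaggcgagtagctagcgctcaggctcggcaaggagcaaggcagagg
Dll4 (chr2:119325534-119325833, plus strand): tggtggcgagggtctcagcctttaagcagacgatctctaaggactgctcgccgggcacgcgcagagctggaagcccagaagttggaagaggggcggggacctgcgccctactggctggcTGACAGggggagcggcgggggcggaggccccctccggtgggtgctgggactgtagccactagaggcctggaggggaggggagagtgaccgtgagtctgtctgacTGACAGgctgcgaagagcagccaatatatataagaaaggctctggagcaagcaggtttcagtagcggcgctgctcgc
The ETS-type motif stood in 8 of the 14 single-entry promoters (57.1%) and in 35.4% of all 32851 promoters of this length. For the SOX-type motif the counts were 2 of 14 (14.3%) and 10.7% of all promoters, and for the MEIS-type motif 4 of 14 (28.6%) and 19.2%. ETS-type matches occurred in promoters of members from both sides of the chamber comparison, as the Cytl1, Eng and Rgcc sequences show. A match is only a run of letters, and binding was not measured.

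Levels can be compared between genes only per exon length (signal per kb of merged exons, GENCODE M21). Eng, a co-receptor for TGF-beta and BMP ligands, was the top member in atria, at 122 ± 7.27 per kb in idKO atria and 109.7 ± 4.03 in control atria (SD, n = 4 each). Cytl1, a secreted cytokine-like protein, and Plvap, which forms the diaphragms of endothelial fenestrae and caveolae, came next in control atria at 68.01 and 50.9 per kb. In ventricles the order was another one. Rgcc, a cell cycle regulator found in capillary endothelium, led at 49.6 ± 7.27 in idKO ventricles and 40.97 ± 9.35 in control ventricles, ahead of Eng and of Cdh5, the VE-cadherin of endothelial junctions. The spreads of Rgcc, Eng and Cdh5 overlapped in control ventricles, where Eng had 40.7 ± 0.807 and Cdh5 38.8 ± 2.74 per kb. Nrg1, the neuregulin ligand through which endocardium signals to muscle, was the lowest member in all 4 groups, at 0.400, 0.286, 0.234 and 0.176 per kb in idKO atria, control atria, idKO ventricles and control ventricles.

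**Figure D1:**
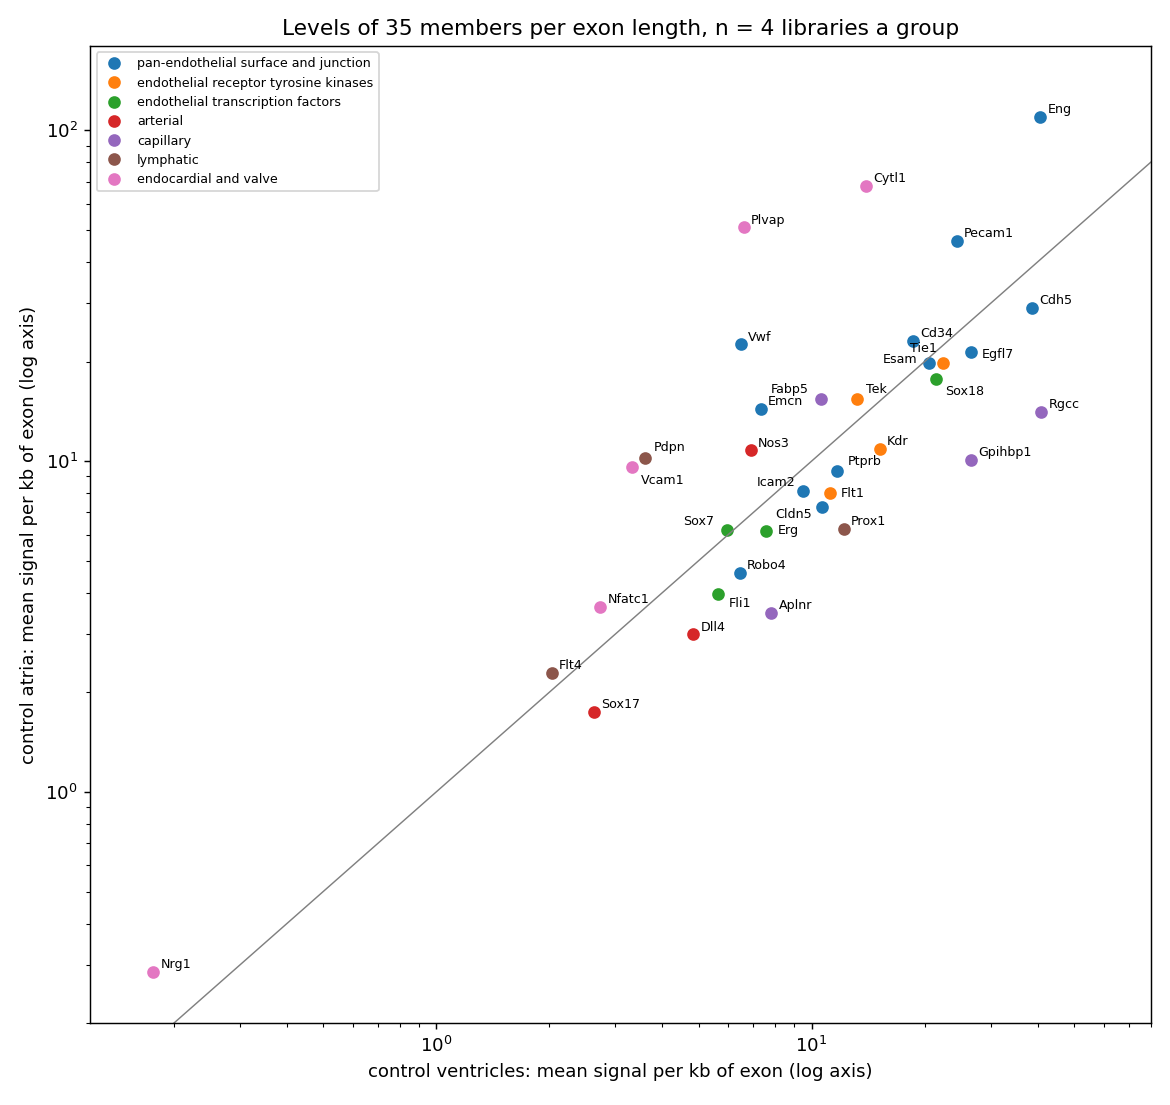
Mean signal per kb of exon of the 35 members in control atria (vertical, log axis) against control ventricles (horizontal, log axis), coloured by class, n = 4 libraries a group. The line marks equal levels; Plvap, Cytl1 and Vwf lie farthest above it and Rgcc, Gpihbp1 and Aplnr farthest below.

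The comparison of idKO with control mice asked whether the induced deletion in heart muscle goes with a change of vessel and endocardial transcripts. None of the 35 members was called in either chamber (limma on log2(value + 1), Benjamini-Hochberg adjusted p under 0.05 over all genes tested). In ventricles 0.492% of 13808 genes were called higher and 1.46% lower, and in atria 0.0206% of 14598 genes were called higher and 0.0% lower. DESeq2 and edgeR on the recovered reads also called 0 members in both chambers. Members' differences leaned above 0 without passing: 28 of 35 were positive in ventricles, with a median log2 difference of 0.09 against -0.01 for all genes, and 31 of 35 in atria, with a median of 0.16 against -0.00. Of all genes tested, 48.2% were positive in ventricles and 49.9% in atria.

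In ventricles, 5 of 35 members had an unadjusted p under 0.05 (14.3%), a share near the 14.6% of all genes tested. Plvap had the smallest p of them. It measured 18.3, 17.99, 17.1 and 15.4 in idKO ventricles and 13.8, 11.3, 13.9 and 13.3 in control ventricles, with no overlap (log2 difference 0.37 ± 0.11 SE, limma adjusted p = 0.116). In a joint fit of 16 libraries with the mouse as a replicate block, Plvap was the 1 member called (limma adjusted p = 0.0465). Cytl1 differed by 0.39 ± 0.13 (log2 difference ± SE, limma adjusted p = 0.189). Nos3, the endothelial nitric oxide synthase, differed by 0.29 ± 0.10 (limma adjusted p = 0.194). Emcn, a sialomucin of venous, capillary and endocardial cells, differed by 0.30 ± 0.11, and the arterial factor Sox17 by 0.33 ± 0.13 (limma adjusted p = 0.209 and 0.277). The libraries of these 4 overlapped between the groups. Besides Plvap only Flt4, the VEGF-C receptor of lymphatic vessels, had higher values in every idKO ventricle than in every control one. Thus 2 of 35 members (5.71%) did not overlap on the higher side, against 3.17% of all genes, and none on the lower side, against 5.62%. Without idKO ventricle replicate 2 the median of the members was 0.04.

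In atria, 12 of 35 members had an unadjusted p under 0.05 (34.3%), against 4.6% of all genes, though the lowest adjusted p was 0.819. Icam2, an adhesion molecule of endothelial cells, measured 20.7, 18.6, 20.3 and 23.1 in idKO atria and 16.4, 17.3, 14.9 and 13.3 in control atria (log2 difference 0.40 ± 0.11 SE, limma adjusted p = 0.819). Tie1, an orphan receptor that modulates TIE2 signalling, measured 113, 120.2, 113 and 115 in idKO atria and 102, 98.5, 103 and 86.4 in control atria (0.24 ± 0.07, limma adjusted p = 0.819). Pecam1, the platelet endothelial adhesion molecule, measured 358, 371, 307 and 334 in idKO atria and 305, 277, 306 and 267 in control atria (0.25 ± 0.07, limma adjusted p = 0.939). Each of these genes was above all control atria in all 4 idKO atria. The same held for Cytl1, Sox17 and Flt1. Thus 6 of 35 members (17.1%) did not overlap on the higher side, against 1.51% of all genes, and 0 on the lower side, against 1.29%. Plvap, Tek, Vcam1, Eng and Dll4 also had positive differences with unadjusted p under 0.05. Pdpn, a mucin-type glycoprotein of lymphatic endothelium and of mesothelium, was the 1 of the 12 below 0 (log2 difference -0.40 ± 0.16 SE, limma adjusted p = 0.966).

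By class, positive differences were found in atria for 12 of 12 pan-endothelial genes, 4 of 4 receptor tyrosine kinases, 3 of 4 transcription factors, 3 of 3 arterial, 3 of 4 capillary, 2 of 3 lymphatic and 4 of 5 endocardial and valve genes. In ventricles the counts were 11, 2, 4, 2, 2, 2 and 5 in the same order. The 2 of 4 receptor tyrosine kinases and 2 of 4 capillary genes lay near the share of all genes positive in ventricles (48.2%). Of further endothelial genes outside the members, 9 of 11 arterial and 5 of 5 endocardial and valve genes tested were positive in both chambers. For further capillary genes the counts were 5 of 10 in ventricles and 8 of 10 in atria. Of the lymphatic ones, 2 of 5 were positive in ventricles and 4 of 5 in atria, and of the venous ones 2 of 2 tested and 1 of 4. The members share a cell type and do not vary independently. The pan-endothelial mean was 6.67, 6.64, 6.57 and 6.52 in idKO atria, against 6.49, 6.44, 6.46 and 6.42 in control atria, and 6.32, 6.46, 6.21 and 6.22 in idKO ventricles, against 6.20, 6.19, 6.19 and 6.18 in control ventricles (log2 scale, 1 value a library). Every idKO library lay above every control library of its chamber on this mean. Markers of some other cells also leaned to 1 side, while others were mixed. All 8 cardiomyocyte genes had negative differences in both chambers, with medians of -0.13 in ventricles and -0.09 in atria. Their summed signal ran from 75079 to 88903 in idKO ventricles and from 90449 to 97061 in control ventricles, and in atria from 62416 to 72932 in idKO mice and from 65541 to 77111 in control mice. Of 6 fibroblast genes, 5 in ventricles and all 6 in atria were positive, with medians of 0.26 and 0.22. The summed fibroblast signal ran from 932 to 1511 in idKO ventricles and from 881 to 1043 in control ventricles, with 1398 to 2070 in idKO atria and 1203 to 1955 in control atria. Of 6 macrophage genes, 5 were positive in both chambers, with medians of 0.21 in ventricles and 0.13 in atria. Their summed signal ran from 178 to 205 in idKO ventricles and from 160.1 to 169 in control ventricles, with no overlap, and from 196 to 241 in idKO atria and from 184 to 217 in control atria. Of the cardiomyocyte, fibroblast and macrophage genes, Ryr2, the calcium release channel of myocytes, was the 1 called (log2 difference -0.66 ± 0.09 SE in ventricles, limma adjusted p = 0.00113). Of the 4 members with negative differences in atria, Sox18, Nfatc1, Aplnr and Pdpn, only Pdpn had an unadjusted p under 0.05. Of the mesothelial genes, 4 of 4 were negative in both chambers and 1, Msln in ventricles, was called (-1.14 ± 0.21, limma adjusted p = 0.0109). Of 7 smooth muscle and pericyte genes, 3 were positive in ventricles and 6 in atria (medians -0.001 and 0.06). Of 5 red cell and platelet genes tested, 4 were negative in both chambers (medians -0.26 in ventricles and -0.32 in atria). All 3 lymphocyte genes were negative in atria (median -1.32). The part of any of these in the endothelial differences was not tested.

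**Figure D2:**
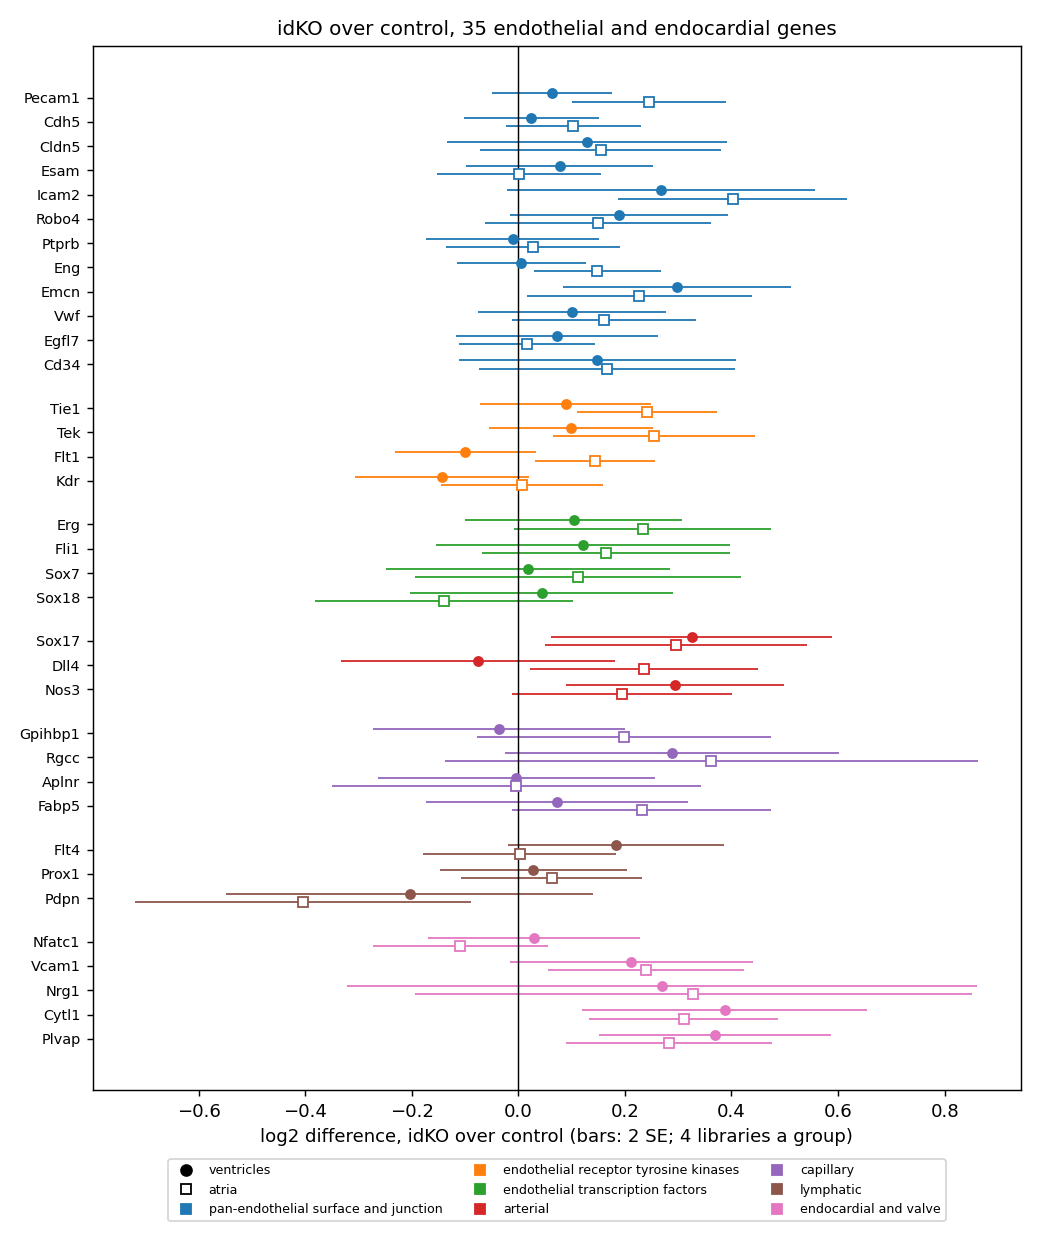
Log2 difference of each member, idKO over control, in ventricles (filled circles) and atria (open squares), with bars of 2 SE and colours by class, 4 libraries a group. Most points lie between 0 and 0.40, and no member was called in either chamber.

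Across all members, the estimates ran from -0.20 to 0.39 in ventricles and from -0.40 to 0.40 in atria, and the widest reach of estimate ± 2 SE was from -0.72 to 0.86. These are differences of log2(value + 1), which understate the change of low genes such as Nrg1. The genotype effect did not differ detectably between chambers: the interaction (effect in atria minus effect in ventricles) called 0 of 35 members by limma, DESeq2 and edgeR alike. By limma, 0.272% of 15075 genes were called higher and 0.0265% lower. Flt1, the VEGF receptor 1, was the 1 member with an unadjusted p under 0.05. Its difference was 0.14 in atria and -0.10 in ventricles, which leaves an interaction of 0.24 ± 0.08 (SE, limma adjusted p = 0.511).

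Atria and ventricles, by contrast, differed in most members. These comparisons use the same libraries as those above, so the 2 kinds of difference are not independent. In idKO mice 12 of 35 members (34.3%) were called higher in atria than in ventricles and 15 (42.9%) lower, against 26.5% and 26.7% of 15075 genes. In control mice the counts were again 12 and 15, against 28.0% and 28.4% of genes. Such calls were thus common among all genes as well, and these shares are the background of every class count below. Called in both genotypes were 12 members higher and 14 lower, none in opposite directions; Sox18 was called in idKO mice alone and Erg in control mice alone. Esam, Icam2, Cd34, Tie1, Sox7, Flt4 and Nrg1 were called in neither. The chamber comparisons of the 2 genotypes use different mice, and 34 of 35 members had the same sign in both; the largest gap between them was 0.31, for Dll4.

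The directions rest in part on the scaling. With values taken as plain shares of the library, the median of all genes moved by 0.42 in idKO mice and by 0.49 in control mice, and 21 members were called higher and 4 lower in each. Library shares moved the differences upwards, so the 12 higher calls held but were not put at risk. Of the lower calls, which were, 4 held under both scalings, those of Prox1, Rgcc, Gpihbp1 and Aplnr. Relative to the median of all genes, 34 members in idKO mice (all but Tie1) and all 35 in control mice stayed on the same side under both scalings. The scalings differ only by a factor per library, which moves all genes nearly alike. This agreement was therefore set in advance and is no support for a direction. For a member whose sign turned, lower in atria holds only under the authors' scaling, or relative to that median. Flt1 in idKO mice, and Ptprb and Egfl7 in control mice, were called lower under the authors' scaling and higher under library shares. The members called in neither genotype under the authors' scaling were all called higher in atria under library shares, in both genotypes.

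**Figure D3:**
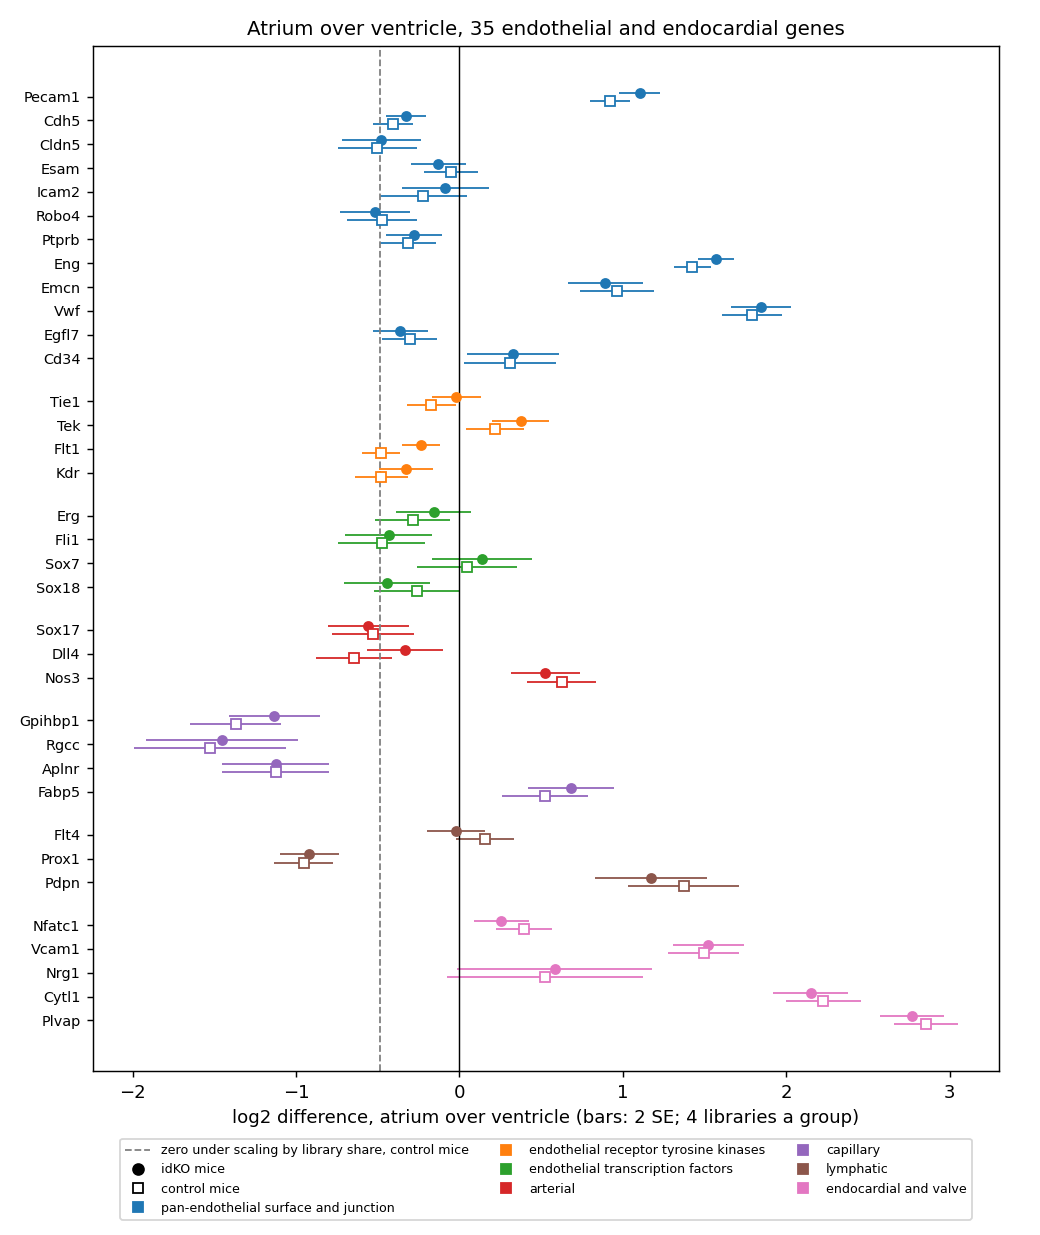
Log2 difference of each member, atrium over ventricle, in idKO mice (filled circles) and control mice (open squares), with bars of 2 SE and colours by class, 4 libraries a group. The dashed line shows about where zero falls under library shares in control mice. Endocardial genes lie right of both lines, while Rgcc, Gpihbp1, Aplnr and Prox1 lie well left of both. Sox17 lies just left of both, as do Dll4 and Cldn5 in control mice and Robo4 in idKO mice.

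Endocardial and valve genes were higher in atria: 4 of 5 members were called, Nrg1 being the exception, with a median log2 difference of 1.52 in idKO mice and 1.495 in control mice. Plvap (chromosome 8, 71497765 to 71511752, GRCm38) measured 123, 133, 134 and 103 in idKO atria and 109.9, 103, 105 and 86.2 in control atria. In the ventricles it was at 18.3, 17.99, 17.1 and 15.4 in idKO mice and 13.8, 11.3, 13.9 and 13.3 in control mice. No atrial library came near a ventricular one (log2 difference 2.77 ± 0.10 SE in idKO mice and 2.86 ± 0.10 in control mice, limma adjusted p = 4.3e-14 and 2.2e-14), the widest chamber gap of any member. Cytl1 (chromosome 5, 37735519 to 37739820), whose promoter is shown above, measured 78.5, 107, 88.3 and 85.4 in idKO atria and 75.5, 68.8, 75.5 and 67.5 in control atria. Its ventricular values were 21.8, 19.6, 17.1 and 19.04 in idKO mice and 11.9, 17.5, 16.8 and 12.8 in control mice. Its groups were likewise apart (2.15 ± 0.12 SE in idKO mice and 2.23 ± 0.12 in control mice, limma adjusted p = 1.7e-11 and 8.8e-12). Vcam1, an adhesion molecule of endocardial, valve and stromal cells, averaged 100.3 ± 9.89 in idKO atria and 84.9 ± 10.1 in control atria, against 34.4 ± 4.67 in idKO ventricles and 29.5 ± 3.81 in control ventricles (SD, n = 4 each). Nfatc1, a transcription factor needed for valve formation, differed less, by 0.26 ± 0.09 in idKO mice and 0.40 ± 0.09 in control mice (limma adjusted p = 0.0161 and 6.1e-04), and in idKO mice its call was lost without mouse replicate 1 or 2 (limma adjusted p = 0.0873 and 0.0852). Nrg1 had 4.14 ± 2.10 in idKO atria, 2.96 ± 0.914 in control atria, 2.42 ± 1.22 in idKO ventricles and 1.83 ± 1.004 in control ventricles, a difference that did not pass (limma adjusted p = 0.110 in idKO mice and 0.146 in control mice). It passed with the mouse as a fixed replicate block (limma adjusted p = 0.0181 in idKO mice and 0.0297 in control mice) and under library shares (0.00910 and 0.0123).

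Further endocardial and valve genes, from a list kept apart from the members, went the same way. This list too was chosen with earlier results of these data known, so its counts are a description only. Of 5 tested, 4 were called higher in atria in both genotypes and none lower, against 26.5% of all genes called higher in idKO mice and 28.0% in control mice. Npr3, the natriuretic peptide clearance receptor and an endocardial marker, measured 338, 388, 314 and 276 in idKO atria and 299, 273, 308 and 268 in control atria. The ventricular signal was 43.5, 42.3, 39.6 and 35.7 in idKO mice and 43.2, 37.7, 43.6 and 36.6 in control mice. The log2 difference was 2.99 ± 0.09 SE in idKO mice and 2.80 ± 0.09 in control mice (limma adjusted p = 5.8e-15 and 1.4e-14). Smoc1, a matricellular calcium-binding protein, averaged 60.95 in control atria and 8.17 in control ventricles, and Adgrg6, an adhesion receptor of the endocardium, 14.04 in control atria and 2.30 in control ventricles. Fibroblast genes were also higher in atria in 6 of 6 cases in both genotypes, with summed signal of 1203 to 1955 in control atria and 881 to 1043 in control ventricles; their part in the Vcam1 difference was not tested.

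Capillary genes formed the other extreme. In both genotypes 3 of 4 members were called lower in atria, and Fabp5, a fatty acid binding protein that adipocytes and macrophages also make, was called higher. Gpihbp1 (chromosome 15, 75596628 to 75599481), which carries lipoprotein lipase to the capillary lumen, measured 30.4, 31.99, 26.4 and 28.2 in idKO atria and 19.6, 22.2, 30.1 and 31.1 in control atria. Ventricles had 70.2, 68.5, 55.4 and 68.2 in idKO mice and 51.3, 70.5, 70.8 and 78.5 in control mice. All ventricular libraries were above all atrial ones (log2 difference -1.14 ± 0.14 SE in idKO mice and -1.37 ± 0.14 in control mice, limma adjusted p = 1.2e-06 and 9.5e-08). Aplnr (chromosome 2, 85136225 to 85139923), the apelin receptor, measured 12.8, 14.2, 12.6 and 10.7 in idKO atria and 16.7, 14.1, 12.3 and 8.51 in control atria. In the ventricles it was at 28.8, 34.2, 26.5 and 25.2 in idKO mice and 35.004, 28.1, 30.03 and 22.5 in control mice. The log2 difference was -1.13 ± 0.16 SE in idKO mice and -1.13 ± 0.16 in control mice (limma adjusted p = 9.7e-06 and 9.0e-06). Rgcc (chromosome 14, 79288756 to 79301645), with its promoter above, measured 15.96, 11.04, 17.8 and 20.1 in idKO atria and 8.23, 9.41, 21.1 and 12.98 in control atria. Its ventricular values were 48.8, 51.3, 36.1 and 45.99 in idKO mice and 25.4, 43.3, 37.98 and 43.8 in control mice. Its difference was the most negative of all members (-1.45 ± 0.23 SE in idKO mice and -1.53 ± 0.23 in control mice, limma adjusted p = 3.0e-05 and 1.6e-05), and its spread among control atria was wide. Fabp5 averaged 64.7 ± 8.89 in idKO atria and 55.1 ± 8.67 in control atria, against 40.1 ± 6.61 in idKO ventricles and 37.9 ± 4.95 in control ventricles. Adipocyte genes, Adipoq and Plin1, moved with the chamber too, with summed signal of 42.3 to 146 in idKO atria and 22.5 to 99.9 in control atria, against 0.0847 to 1.06 in idKO ventricles and 0.408 to 1.31 in control ventricles; their part in Fabp5 was not tested.

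A separate list of 10 further capillary genes was called lower in atria in 10 of 10 cases in both genotypes, with medians of -1.37 in idKO mice and -1.34 in control mice. Of all genes, 26.7% in idKO mice and 28.4% in control mice were called lower. These calls use the authors' scaling. The smallest difference of the list, -0.32 in idKO mice and -0.43 in control mice, was smaller in size than the shift between the scalings (0.42 and 0.49). This list too was chosen with earlier results of these data known. Cd36, the fatty acid transporter, averaged 947 in idKO atria and 964 in control atria, against 2533 in idKO ventricles and 2748 in control ventricles. Lpl, the lipoprotein lipase that Gpihbp1 anchors, averaged 1791 in idKO atria and 1802 in control atria, against 6065 in idKO ventricles and 6683 in control ventricles. Btnl9, a butyrophilin-like gene of heart capillaries, averaged 14.4 in control atria and 60.2 in control ventricles. Cd36 and Lpl are also made by cardiomyocytes, of whose 8 genes 5 were called lower and 1 higher in idKO atria, and 6 lower in control atria. Of 7 smooth muscle and pericyte genes, 3 were called lower and 1 higher in atria in both genotypes, with a median of -0.07 in idKO mice and -0.14 in control mice. The pericyte genes Rgs5 and Kcnj8 differed by -1.53 and -1.28 in control mice (log2 difference, limma adjusted p = 9.1e-09 and 1.2e-08), and the smooth muscle myosin Myh11 by 1.17 (limma adjusted p = 1.3e-04). The part of the cardiomyocyte and pericyte content in the capillary differences was not tested.

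**Figure D4:**
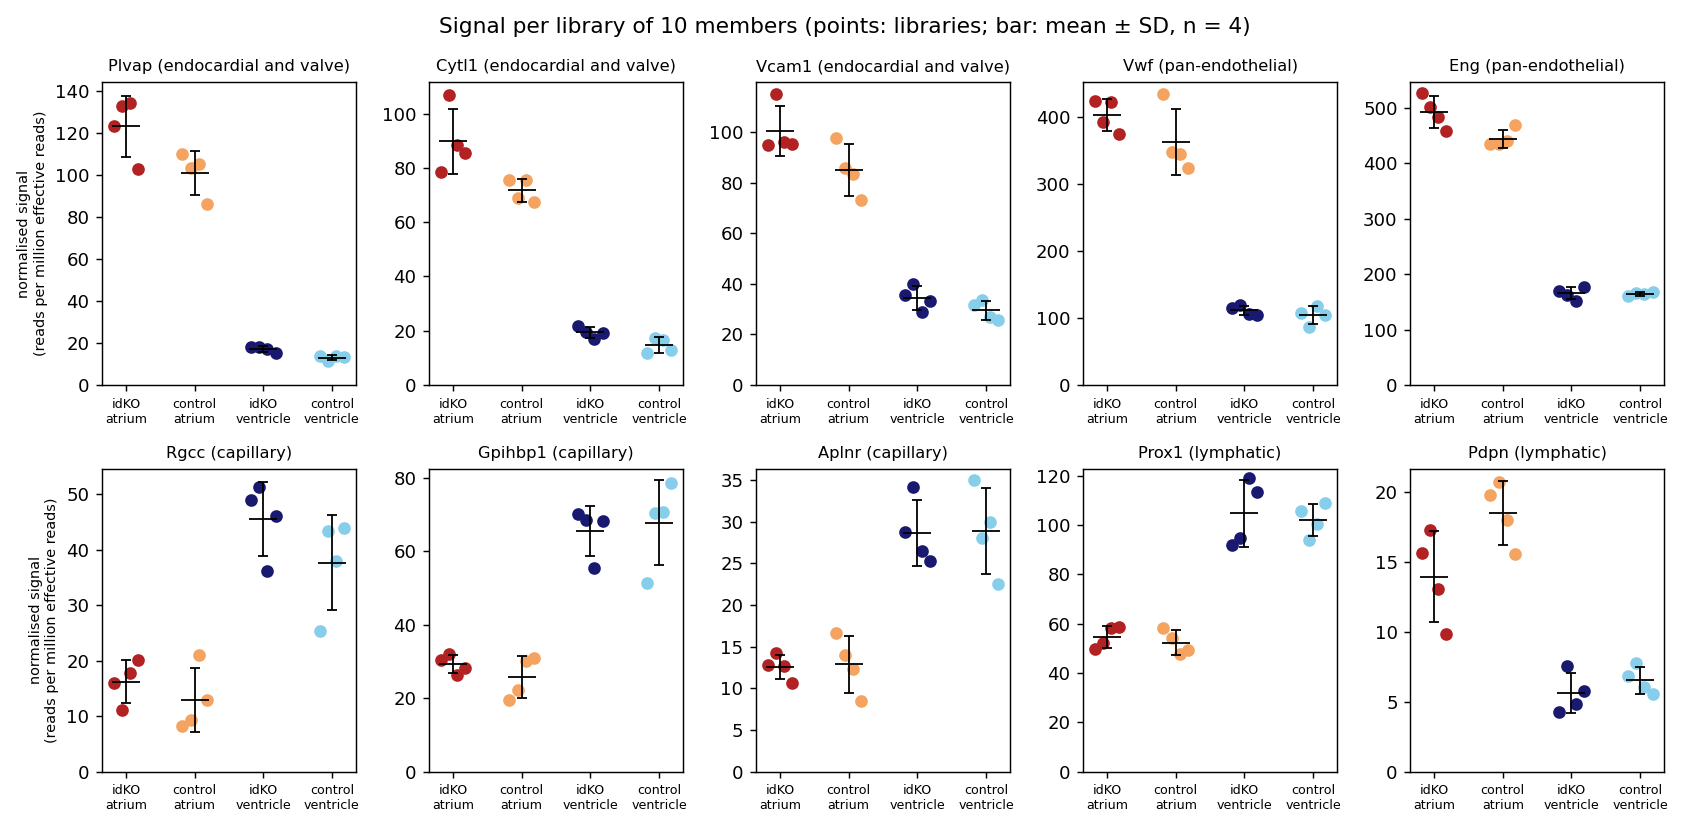
Normalised signal (CPM-like scale) of 10 members in every library of the 4 groups, with mean ± SD (n = 4). The upper row shows members higher in atria and the lower row the capillary genes Rgcc, Gpihbp1 and Aplnr, the lymphatic factor Prox1, all lower in atria, and Pdpn, higher in atria.

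Lymphatic members did not move together. Prox1 (chromosome 1, 190118035 to 190170714), the lymphatic master factor, measured 49.6, 52.1, 58.5 and 58.7 in idKO atria and 58.3, 54.4, 47.6 and 49.2 in control atria. The ventricular signal was 91.7, 94.8, 119 and 113 in idKO mice and 106, 93.9, 100.5 and 109 in control mice. It was lower in every atrial library than in any ventricular one (log2 difference -0.92 ± 0.09 SE in idKO mice and -0.95 ± 0.09 in control mice, limma adjusted p = 6.0e-08 and 3.3e-08). Pdpn (chromosome 4, 143267431 to 143299564) measured 15.6, 17.3, 13.1 and 9.85 in idKO atria and 19.8, 20.8, 18.03 and 15.6 in control atria. Ventricles had 4.29, 7.58, 4.88 and 5.76 in idKO mice and 6.82, 7.75, 6.09 and 5.55 in control mice. It was higher in atria (1.17 ± 0.17 SE in idKO mice and 1.37 ± 0.17 in control mice, limma adjusted p = 9.9e-06 and 1.3e-06). Flt4 averaged 18.9 ± 0.859 in idKO atria and 18.9 ± 1.55 in control atria, against 19.2 ± 2.14 in idKO ventricles and 16.8 ± 0.440 in control ventricles, and was not called. Under library shares Flt4 was called higher in atria (limma adjusted p = 6.3e-04 in idKO mice and 4.4e-06 in control mice). Prox1 is also expressed in heart muscle cells, and the cardiomyocyte genes had medians of -0.49 in idKO mice and -0.47 in control mice (atrium over ventricle), about the size of the shift between the scalings. In idKO mice 1 of the 8 was called higher in atria. The summed cardiomyocyte signal was 62416 to 72932 in idKO atria and 65541 to 77111 in control atria, against 75079 to 88903 in idKO ventricles and 90449 to 97061 in control ventricles. Mesothelial genes were higher in atria, with summed signal of 157 to 306 in idKO atria and 254 to 311 in control atria, against 7.65 to 21.1 in idKO ventricles and 23.2 to 28.3 in control ventricles. Whether they set the values of Prox1 and Pdpn was not tested. Of 5 further lymphatic genes, 1 was called higher and 2 lower in idKO atria, and 1 higher and 4 lower in control atria. Lyve1, a hyaluronan receptor that resident macrophages share, averaged 73.3 in control atria and 24.5 in control ventricles, whereas Ccl21a, a lymphatic chemokine with near-identical gene copies that make its count uncertain, averaged 11.04 in control atria and 29.6 in control ventricles.

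Arterial members were split as well, with 1 called higher and 2 lower in atria in both genotypes. Among all genes, 26.5% in idKO mice and 28.0% in control mice were called higher, and 26.7% and 28.4% lower. Nos3 (chromosome 5, 24364810 to 24384474) measured 57.9, 56.8, 45.4 and 45.1 in idKO atria and 51.1, 40.3, 43.1 and 43.7 in control atria. In the ventricles it was at 36.5, 41.9, 29.1 and 34.1 in idKO mice and 29.4, 28.8, 28.3 and 27.2 in control mice. It was higher in atria with no overlap in either genotype (log2 difference 0.52 ± 0.11 SE in idKO mice and 0.63 ± 0.11 in control mice, limma adjusted p = 3.6e-04 and 5.6e-05). Dll4 (chromosome 2, 119325784 to 119335962), the Notch ligand of arterial and sprouting endothelium, measured 13.4, 14.4, 15.2 and 12.2 in idKO atria and 12.7, 11.1, 11.2 and 11.1 in control atria. Its ventricular values were 14.5, 22.7, 17.3 and 16.7 in idKO mice and 19.2, 16.9, 20.8 and 17.7 in control mice. It was lower in atria under the authors' scaling (-0.33 ± 0.12 SE in idKO mice and -0.65 ± 0.12 in control mice, limma adjusted p = 0.0228 and 1.2e-04), but under library shares its difference was 0.12 in idKO mice and -0.11 in control mice, so it lay below the median of all genes in both without a fixed sign. The idKO call was lost without idKO mouse replicate 2 or 4 (limma adjusted p = 0.107 and 0.0794). Sox17 averaged 10.5 ± 1.38 in idKO atria and 8.34 ± 0.530 in control atria, against 15.9 ± 1.89 in idKO ventricles and 12.6 ± 2.22 in control ventricles, and under library shares it was no longer called (limma adjusted p = 0.469 in idKO mice and 0.937 in control mice).

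Of the 4 receptor tyrosine kinases, Flt1 and Kdr, the VEGF receptors, lay below the median of all genes in atria and Tek, the angiopoietin receptor, above it. Kdr (chromosome 5, 75932827 to 75978458) measured 103, 102, 102 and 87.6 in idKO atria and 109.7, 91.7, 93.3 and 98.4 in control atria. The ventricular signal was 113, 114, 142 and 128 in idKO mice and 138, 143, 123 and 144 in control mice. The log2 difference was -0.33 ± 0.08 SE in idKO mice and -0.48 ± 0.08 in control mice (limma adjusted p = 0.00226 and 5.8e-05), and under library shares its sign turned, to 0.15 and 0.08. Flt1 (chromosome 5, 147561604 to 147726011) measured 126, 118, 117 and 117 in idKO atria and 107, 103, 114 and 108 in control atria. Ventricles had 134, 141, 145 and 143 in idKO mice and 135, 152, 162 and 156 in control mice. Its difference on the log2 scale was -0.24 ± 0.06 SE in idKO mice and -0.48 ± 0.06 in control mice (limma adjusted p = 0.00214 and 1.0e-06). Its sign also turned under library shares, to 0.24 and 0.08, and in idKO mice it was then called higher in atria (limma adjusted p = 0.00251). Tek averaged 86.9 ± 8.08 in idKO atria and 72.8 ± 9.37 in control atria, against 66.8 ± 6.02 in idKO ventricles and 62.1 ± 2.76 in control ventricles. In control mice its call (limma adjusted p = 0.0429) was lost without control mouse replicate 1, 2 or 3 and without idKO mouse replicate 3, which enters through the shared spread (limma adjusted p = 0.142, 0.0914, 0.108 and 0.0517). It was also lost without a trended prior (limma adjusted p = 0.0696). Tie1 was called in neither genotype. With the mouse as a random replicate block it was called lower in control atria (limma adjusted p = 0.0314). Under library shares its sign turned and it was called higher in atria (limma adjusted p = 1.7e-04 in idKO mice and 7.0e-04 in control mice).

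Among 14 ligands and co-receptors of these pathways, 5 were called higher and 3 lower in idKO atria than in idKO ventricles, and 5 higher and 6 lower in control atria than in control ventricles. Of all genes, 26.5% were called higher and 26.7% lower in idKO mice, and 28.0% and 28.4% in control mice. Of the 14, 0 were called in either comparison of idKO with control by limma (3 in ventricles and 2 in atria had an unadjusted p under 0.05). Angpt1, the ligand of Tek, averaged 270.4 in idKO atria and 271 in control atria, against 43.6 in idKO ventricles and 59.4 in control ventricles (control chambers 2.16 ± 0.14 SE, limma adjusted p = 2.1e-10). Vegfb, a ligand of Flt1, averaged 171 in idKO atria and 172 in control atria, against 270.4 in idKO ventricles and 299 in control ventricles (-0.79 ± 0.06 SE, limma adjusted p = 8.3e-10). Erbb4, a receptor for Nrg1, averaged 87.2 in control atria and 19.5 in control ventricles. In idKO ventricles Angpt1 came nearest to a call of these 14, at a log2 difference of -0.44 ± 0.11 (SE, limma adjusted p = 0.0692).

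Of the 4 transcription factors, 2 were called lower in atria in each genotype and none higher, and the signs of those called turned under library shares. Among all genes, 26.7% in idKO mice and 28.4% in control mice were called lower. Fli1 (chromosome 9, 32422204 to 32542861) measured 13.9, 13.8, 18.3 and 16.5 in idKO atria and 13.4, 12.3, 14.5 and 14.9 in control atria. In the ventricles it was at 18.5, 26.5, 24.9 and 16.97 in idKO mice and 17.9, 18.6, 19.8 and 22.1 in control mice. The log2 difference was -0.43 ± 0.13 SE in idKO mice and -0.48 ± 0.13 in control mice (limma adjusted p = 0.00961 and 0.00476), with a sign that turned under library shares, to 0.02 and 0.06. In idKO mice its call was lost without idKO mouse replicate 2 (limma adjusted p = 0.109). Erg (chromosome 16, 95359169 to 95586593) measured 22.9, 27.9, 28.9 and 21.6 in idKO atria and 25.3, 20.6, 21.3 and 18.4 in control atria. Its ventricular values were 26.9, 30.95, 27.9 and 27.1 in idKO mice and 24.5, 30.5, 27.6 and 22.6 in control mice. Its control call (limma adjusted p = 0.0399) was lost without control mouse replicate 2, 3 or 4 (limma adjusted p = 0.215, 0.131 and 0.0614). The call was also lost with edgeR (adjusted p = 0.0796), with DESeq2 (0.050) and with limma without a trended prior (0.0507). The sign of Erg turned under library shares in both genotypes, and in idKO mice it was then called higher in atria (limma adjusted p = 0.0338). Sox18 was called lower in idKO atria (limma adjusted p = 0.00778), with a sign that turned under library shares, and the call was lost without idKO mouse replicate 1 (limma adjusted p = 0.0634). In control mice it was not called (limma adjusted p = 0.0991, or 0.0467 with the mouse as a random replicate block). Its interaction was -0.18 ± 0.18 (SE, limma adjusted p = 0.938). Sox7 averaged 21.9 ± 3.17 in idKO atria and 20.4 ± 5.18 in control atria, against 19.8 ± 2.74 in idKO ventricles and 19.6 ± 3.18 in control ventricles. It was not called, but under library shares it was called higher in atria (limma adjusted p = 0.00362 in idKO mice and 0.00396 in control mice).

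Genes that serve as general endothelial markers did not give 1 answer on the chambers. In both genotypes 4 of 12 were called higher in atria and 5 lower. Of all genes, 26.5% were called higher and 26.7% lower in idKO mice, and 28.0% and 28.4% in control mice. Eng (chromosome 2, 32646595 to 32682669) measured 527, 502, 484 and 458 in idKO atria and 434, 434, 439.8 and 468 in control atria. The ventricular signal was 169, 163, 152 and 178 in idKO mice and 159.9, 166, 165 and 167 in control mice. The log2 difference was 1.57 ± 0.06 SE in idKO mice and 1.43 ± 0.06 in control mice (limma adjusted p = 4.5e-14 and 1.6e-13). Vwf (chromosome 6, 125546774 to 125686679), von Willebrand factor of endothelial storage granules, measured 423, 392, 422 and 375 in idKO atria and 434, 347, 345 and 324 in control atria. Ventricles had 114, 120.04, 107 and 104 in idKO mice and 108, 86.6, 118 and 104 in control mice. Its difference on the log2 scale was 1.85 ± 0.09 SE in idKO mice and 1.79 ± 0.09 in control mice (limma adjusted p = 6.3e-12 and 7.7e-12). Every atrial library of both genes was above every ventricular one. Pecam1 and Emcn were the other members of this class called higher in atria, at 0.92 ± 0.06 and 0.96 ± 0.11 in control mice. The 5 called lower were Cdh5, Cldn5, a tight junction claudin, Robo4, a receptor that stabilises vessels, Ptprb, the phosphatase that acts on TIE2 and VE-cadherin, and Egfl7, a secreted vessel protein. They ranged from -0.50 for Cldn5 to -0.31 for Egfl7 in control mice. Under library shares the sign of Cdh5, Ptprb and Egfl7 turned in idKO mice, and that of all 5 in control mice. In control mice Ptprb and Egfl7 were then called higher in atria (limma adjusted p = 0.0373 and 0.0185). All 5 lay below the median of all genes under both scalings. The Ptprb call in idKO mice was lost without idKO mouse replicate 3 (limma adjusted p = 0.0586). Esam, Icam2 and Cd34 were not called, and for Cd34 the limma adjusted p was 0.0576 in idKO mice and 0.0692 in control mice. With the mouse as a random replicate block Cd34 was called higher in atria (limma adjusted p = 0.0257 in idKO mice and 0.0327 in control mice). Under library shares all of these were called higher in atria. The limma adjusted p in idKO and control mice was then 0.00328 and 1.1e-04 for Esam, 0.0209 and 0.0458 for Icam2, and 2.3e-04 and 9.3e-05 for Cd34.

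A ratio between genes of the same library does not depend on the scaling. Set against Cdh5, which all endothelial cells make, Plvap stood at 0.939 ± 0.119 in idKO atria and 0.826 ± 0.0758 in control atria, against 0.104 ± 0.00546 in idKO ventricles and 0.0805 ± 0.00761 in control ventricles (mean ± SD, n = 4 each). Pecam1, although also a general marker, stood at 2.60 ± 0.123 in idKO atria and 2.36 ± 0.113 in control atria, against 0.961 ± 0.0559 in idKO ventricles and 0.934 ± 0.0494 in control ventricles. Gpihbp1 went the other way, at 0.222 ± 0.00946 in idKO atria and 0.211 ± 0.0493 in control atria, against 0.397 ± 0.0504 in idKO ventricles and 0.419 ± 0.0848 in control ventricles. Kdr, by contrast, had close ratios in all groups, at 0.752 ± 0.0711 in idKO atria, 0.802 ± 0.0383 in control atria, 0.752 ± 0.0848 in idKO ventricles and 0.844 ± 0.0629 in control ventricles. Cdh5 was chosen for this after its values were seen.

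The same view by class subtracts the pan-endothelial mean of a library from the class mean (log2 scale, mean ± SD, n = 4, no test). Endocardial and valve genes stood at -1.18 ± 0.18 in idKO atria and -1.24 ± 0.10 in control atria, against -2.34 ± 0.07 in idKO ventricles and -2.48 ± 0.09 in control ventricles. Capillary genes stood at -1.91 ± 0.08 in idKO atria and -1.95 ± 0.17 in control atria, against -0.85 ± 0.06 in idKO ventricles and -0.82 ± 0.10 in control ventricles. Both classes were apart between the chambers in every library, in opposite directions. The arterial class stood at -2.23 ± 0.09, -2.33 ± 0.07, -1.82 ± 0.07 and -1.88 ± 0.06 in idKO atria, control atria, idKO ventricles and control ventricles. In that order, the receptor tyrosine kinases stood at 0.11 ± 0.05, 0.10 ± 0.06, 0.46 ± 0.11 and 0.59 ± 0.05. The transcription factors stood at -2.10 ± 0.11, -2.04 ± 0.12, -1.58 ± 0.03 and -1.54 ± 0.12. The arterial, kinase and transcription factor classes were each lower in every atrial library than in any ventricular one. For the lymphatic class the 4 group means were -1.94 ± 0.05, -1.68 ± 0.05, -1.72 ± 0.15 and -1.61 ± 0.02 in the same order, and its chambers overlapped in both genotypes. In atria, the idKO and control libraries of the lymphatic class did not overlap (-1.99 to -1.88 in idKO atria and -1.73 to -1.61 in control atria). Both terms entered this gap. The pan-endothelial mean averaged 6.60 in idKO atria and 6.45 in control atria, and the lymphatic mean 4.66 and 4.77. Of the 3 lymphatic members, only Pdpn had a negative difference between idKO and control atria. The pan-endothelial mean holds the 4 members called higher in atria, so these are differences from a mixed yardstick.

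**Figure D5:**
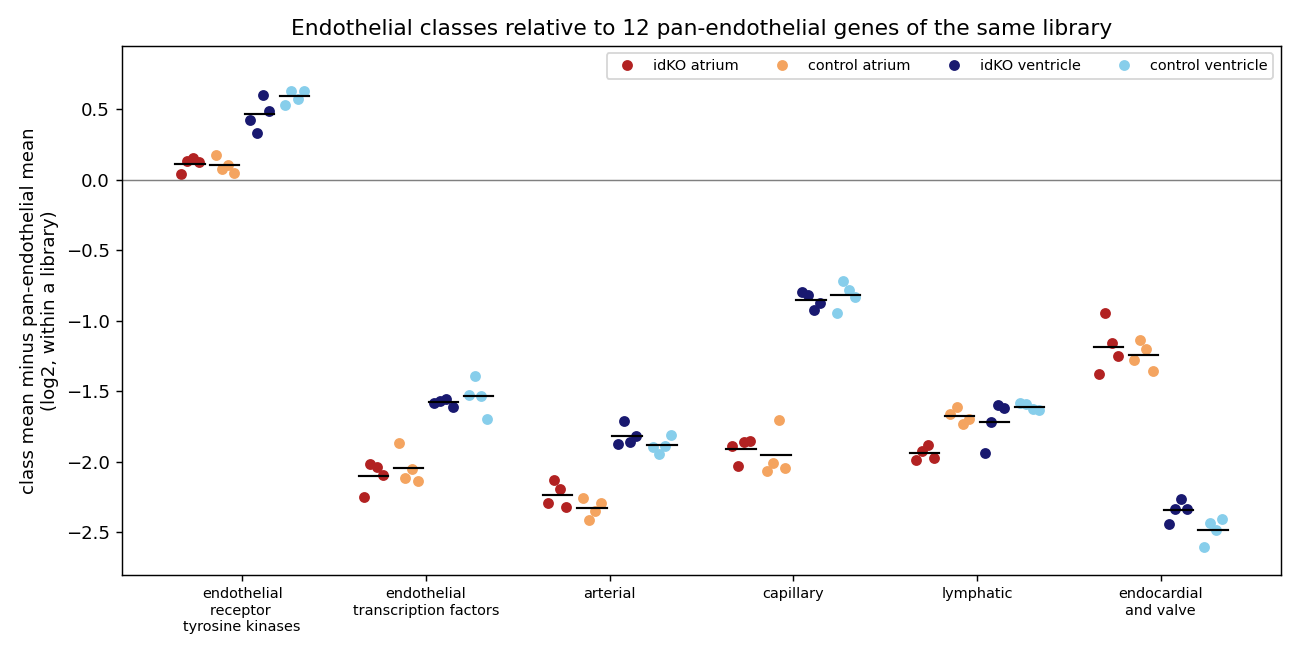
Class mean minus the mean of 12 pan-endothelial genes in each library (log2 scale), by class and group; points are libraries and lines group means, n = 4. Capillary genes are lower in atria and endocardial and valve genes higher in atria, in both genotypes.

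Within groups, members differed in how closely they followed the other endothelial genes. Pearson's r between a gene's deviation from its group mean and that of the pan-endothelial genes (the gene itself left out) was taken over 16 libraries, as a description. All genes of a library share the depth and scaling of that library. The median r over the members was 0.33, with Nos3 at 0.87, Cd34 at 0.86 and Tie1 at 0.70 on top and Prox1 at -0.61 at the bottom. Over all 15075 genes the median was -0.01 and the upper quartile 0.26. Without idKO ventricle replicate 2 the median of the members was 0.20, Nos3 stood at 0.86 and Prox1 at -0.59, but Dll4 went to -0.00, against 0.55 with it. Cd34, a sialomucin that fibroblasts also carry, had r = 0.83 with the fibroblast genes, and Aplnr had r = 0.87, the highest of the members. The median r of the members was 0.43 against the fibroblast genes, above the 0.33 against the pan-endothelial genes. It was 0.25 against the mesothelial genes, 0.06 against the smooth muscle and pericyte genes, -0.09 against the adipocyte genes and -0.45 against the cardiomyocyte genes.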

How the data were processed

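The deposited table holds a normalised signal made by the authors for 16118 genes. Per the submitters' processing notes, cutadapt and RSEM 1.3.1 were used with GRCm38; the scaling tool is not given in the sources used here. Each value came out as a whole read count plus 0.5 over an effective library size, scaled as CPM (100% whole within 0.01). Members, classes and lists were chosen with earlier results of these data known. Genes with at least 4 libraries at 1 or more were tested with limma 3.58.1 on log2(value + 1), which understates changes of low genes, with a trended prior, two-sided, Benjamini-Hochberg adjusted, called under 0.05. Genotypes were fitted on 8 libraries per chamber, chambers and the interaction on 16. DESeq2 1.42.0 and edgeR 4.0.16 on recovered reads, other scalings, pseudocounts, filters and left-out mice were alternatives. Fits were tested on simulated data. Atrium and ventricle of a mouse are paired: their deviations correlated at 0.175 to 0.296 over 12236 genes, each of 8 mice best with itself. Mice are separate animals. Named in full were called genotype members (none), the 2 members per class with the smallest chamber p, and up to 3 genes per further list; Rgcc and those of low genotype p were added after their values were seen.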

Additional observations from a re-analysis of the deposited data

Results flagged for a closer look

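In 11 of 140 sets of 4 libraries (35 members in 4 groups), 1 library lay far from the other 3; chance gives about 1 in 20. In idKO atria these were Flt1 at 125.8 in replicate 1 (others 117 to 118), Kdr at 87.6 in replicate 4 (others 102 to 103), Nfatc1 at 23.7 in replicate 4 (others 25.4 to 25.7) and Vcam1 at 115 in replicate 2 (others 94.8 to 96.2). In control atria Eng stood at 468 in replicate 4 (others 434 to 439.8), Sox7 at 28.1 in replicate 1 (others 16.7 to 18.5), Dll4 at 12.7 in replicate 1 (others 11.1 to 11.2) and Nfatc1 at 24.1 in replicate 4 (others 27.9 to 28.6). In idKO ventricles Egfl7 stood at 118 in replicate 2 (others 92.4 to 96.7) and Gpihbp1 at 55.4 in replicate 3 (others 68.2 to 70.2). In control ventricles Pecam1 stood at 144 in replicate 3 (others 153 to 155). The cause of these values was not tested.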

How the results depend on the processing

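The counts of 0 called members between genotypes held under every alternative run except the joint fit with the mouse as a replicate block, which called 1, Plvap, in ventricles. With idKO ventricle replicate 2 left out the ventricular median was 0.0430, against 0.0887 with all libraries, and under library shares it was 0.1906. For the chamber comparisons, library shares called 21 members higher and 4 lower in each genotype, and the member medians became 0.3683 in idKO mice and 0.3883 in control mice. In idKO mice the single members that turned in sign under library shares were Cdh5 (0.149), Esam (0.3437), Icam2 (0.3683), Ptprb (0.2009), Egfl7 (0.1137), Tie1 (0.4575), Flt1 (0.2408), Kdr (0.1494), Erg (0.3044), Fli1 (0.0213), Sox18 (0.0215), Dll4 (0.1164) and Flt4 (0.4292). In control mice they were Cdh5 (0.1545), Cldn5 (0.0203), Esam (0.5027), Icam2 (0.3094), Robo4 (0.0708), Ptprb (0.2473), Egfl7 (0.2542), Tie1 (0.3883), Flt1 (0.0817), Kdr (0.0838), Erg (0.2545), Fli1 (0.0563) and Sox18 (0.2864). With a mouse left out, uncalled members near 0 turned in sign: in idKO mice Tie1 (range -0.0582 to 0.0247, above 0 without idKO replicate 1 or 2), Icam2 (-0.247 to 0.033) and Flt4 (-0.0642 to 0.0717, both above 0 without idKO replicate 2), and in control mice Sox7 (-0.0554 to 0.1865, below 0 without control replicate 1 or 4). The median of the members in idKO mice was -0.0870 with all mice and 0.0247 without idKO replicate 2. Relative to the pan-endothelial mean, the control chamber difference was -0.3828 for arterial, -1.0119 for capillary, -0.1848 for lymphatic and 1.0248 for endocardial genes with a pseudocount of 5, and -0.1035 for lymphatic genes under library shares, against -0.4437, -1.1353, -0.0683 and 1.239 in that order of classes in the main values. With the mouse as a replicate block in the chamber comparisons, Cd34, Tie1 and Sox18 were also called in control mice. The shift between the scalings comes from the effective library sizes; the other causes were not tested. At this depth and n, a lack of genotype calls does not mean a lack of difference. Plvap in ventricles and Icam2 in atria lay more than 2 SE from 0 and were still not called in the main fit.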

Other observations

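Venous and further arterial genes, which are no members, also differed by chamber. Of 4 venous genes tested, 3 were called higher in idKO atria and all 4 in control atria, against 26.5% and 28.0% of all genes. Nr2f2, the venous identity factor COUP-TFII, which atrial muscle also uses, averaged 73.5 in idKO atria and 74.9 in control atria, against 14.3 in idKO ventricles and 12.4 in control ventricles. Of 11 further arterial genes, 6 were called higher and 4 lower in control atria, against 28.0% and 28.4% of all genes. Gja5, the connexin of arterial endothelium and atrial muscle, averaged 105 in control atria and 5.03 in control ventricles, and Bmx, a kinase of arterial endothelium and endocardium, 22.1 in control atria and 3.21 in control ventricles, while Jag2, a Notch ligand, had 24.5 in control atria and 44.6 in control ventricles. Of these genes, 0 were called between idKO and control mice by limma, with 2 venous genes testable in ventricles; 1 venous and 2 arterial genes in atria and 1 arterial gene in ventricles had an unadjusted p under 0.05.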
